A study of Mus musculus with 4 samples.

Results

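The 33 genes described here lie on the distal end of mouse chromosome 16, between positions 93583457 and 97962622 of GRCm38 (mm10), from *Setd4* to *Zbtb21*, a stretch of 4.38 Mb in which most genes have their counterpart on human chromosome 21. They were chosen by name and position from the 53379 genes of the deposited tables, after the difference between PD800 and PD100 cells along this stretch had been seen, so their fold changes and calls are given as a description, with no p-value, and nothing is inferred from them. Of the 33 genes, 28 were among the 19148 genes with enough counts to be tested.

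RNA was sequenced from 1 mouse embryonic stem cell (mESC) line, DKO741, a line of E14 cells in which both copies of the telomerase RNA gene *Terc* had been targeted (Terc-/-), so that both groups carried the same deletion. PD100 stands for population doubling 100, when the cells still had long telomeres and had not yet activated alternative lengthening of telomeres (ALT, telomere maintenance by recombination), and PD800 for population doubling 800, when ALT survivors grew stably. There were 2 libraries per group, and the cells were grown without feeder cells before extraction. No telomerase-positive culture of the same age is among the libraries used here and PD800 is the product of a single selected line, so that ALT, time in culture and chance changes in this line cannot be told apart. The paper reports that the subtelomeric region holding *Hmgn1* is amplified in PD800 cells relative to earlier cells that had activated ALT. *Hmgn1* lies within the stretch described here. How much of the stretch is amplified was not examined, and the part of DNA copy number in the RNA values was not tested.

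Human chromosome 21 is the chromosome that is present in an extra copy in Down syndrome, and its genes are spread over parts of mouse chromosomes 16, 17 and 10. The distal part of chromosome 16 holds genes of unrelated function. Among them are the kinase gene *Dyrk1a*, a dosage-sensitive regulator of brain growth, the ETS transcription factor genes *Erg* and *Ets2*, the chromatin reader gene *Brwd1* and the interferon-induced antiviral genes *Mx1* and *Mx2*.

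The total expected count (the number of read pairs that RSEM assigned to genes) was between 32454121 and 38492149 per library, and a floor of 3 counts corresponded to between 0.0743 and 0.0934 CPM (counts relative to the library total, with a TMM correction for composition). *Terc* had 1 count in PD100 replicate 1 and 0 in the other 3 libraries. The PD100 replicates differed more from each other than the PD800 replicates did, with a chi-square per degree of freedom of 41.1 against 6.74. The stem cell label was checked against the markers, and all 10 pluripotency markers were detected, with a summed level of 2240 to 2550 CPM at PD100 and 3990 to 4100 CPM at PD800. Of these, 3 were called higher at PD800 by the rule given in the next paragraph, and 9 had a log2 fold change (PD800 over PD100) above 0. Over all tested genes that rule called 6.28% higher and 8.81% lower. Markers of other cells moved with the groups. All 8 primitive endoderm markers were called lower at PD800, their sum falling from between 747 and 799 CPM to between 104 and 105 CPM. Of 7 tested fibroblast markers 5 were called lower, and all 7 had a log2 fold change below 0. Their sum went from between 76.1 and 101 CPM to between 12 and 12.8 CPM, with *Lum* at or near 0. Of the endothelial markers 2 of 5 tested were called lower, and 4 had a log2 fold change below 0. Their sums were 88.8 and 80.6 CPM in the PD100 libraries and 95 and 89.6 CPM in the PD800 libraries, with *Emcn* at 0. Of the neural markers 3 of 5 tested were called higher and 1 lower, with 3 above and 2 below 0. Their sums were 122 and 144 CPM at PD100 and 125 and 128 CPM at PD800, with *Neurog2* at or near 0. In RNA from whole cultures, fewer cells of a type and less RNA per cell cannot be told apart, and the part of these shifts in the values of the chromosome 16 genes was not tested. The paper also sequenced RNA of single cells and reports that PD100 and PD800 cells formed distinct populations, each with high homogeneity. Those single-cell data were not used here.

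The genes of the stretch did not move as a block. A gene was called when its adjusted p was under 0.01 and its fold change over 2 (quasi-likelihood test of edgeR, adjusted after Benjamini and Hochberg). By this rule 8 of the 28 tested genes were higher at PD800 (28.6%), 3 were lower (10.7%) and 17 were not called. Of the 23 genes that passed the count filter in both groups, 7 were called higher and 2 lower, while *Dscam* and *Bace2* entered through the group in which they were high. Among all tested genes 6.28% were called higher and 8.81% lower, or 15.1% in either direction. The median log2 fold change, PD800 over PD100, was 0.65 for the 28 genes and 0.01 for all tested genes, for which the middle of the distribution, from the 25th to the 75th percentile, ran from -0.46 to 0.43. The size of this median depended on the scale. With limma on log2(TPM + 0.1) it was 0.34 for the 28 genes and -0.21 for all, with 6 genes called higher and 4 lower, and on log2(TPM + 1), which shrinks the change of low genes, it was 0.11 and -0.12, with 5 higher and 1 lower. *Lca5l*, *Dscam*, *Bace2*, *Mx2*, *Tmprss2* and *C2cd2* were not called on the latter scale. The CPM values of the 2 groups did not overlap for 24 of the 28 genes, with PD800 above in 17 and below in 7. Over all tested genes PD800 was above without overlap in 37.4% and below in 36.3%. Because the stretch was proposed for this contrast, nothing can be read from the distance between these shares.

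Summed over the 33 genes, the level was 818 and 865 CPM in the PD100 libraries and 1790 and 1810 CPM in the PD800 libraries. *Brwd1* alone made up 18.8% and 21.3% of this sum at PD100 and 37.6% and 38.3% at PD800. Without *Brwd1* the sums were 664 and 680 CPM at PD100 and 1120 and 1110 CPM at PD800.

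**Figure D1:**
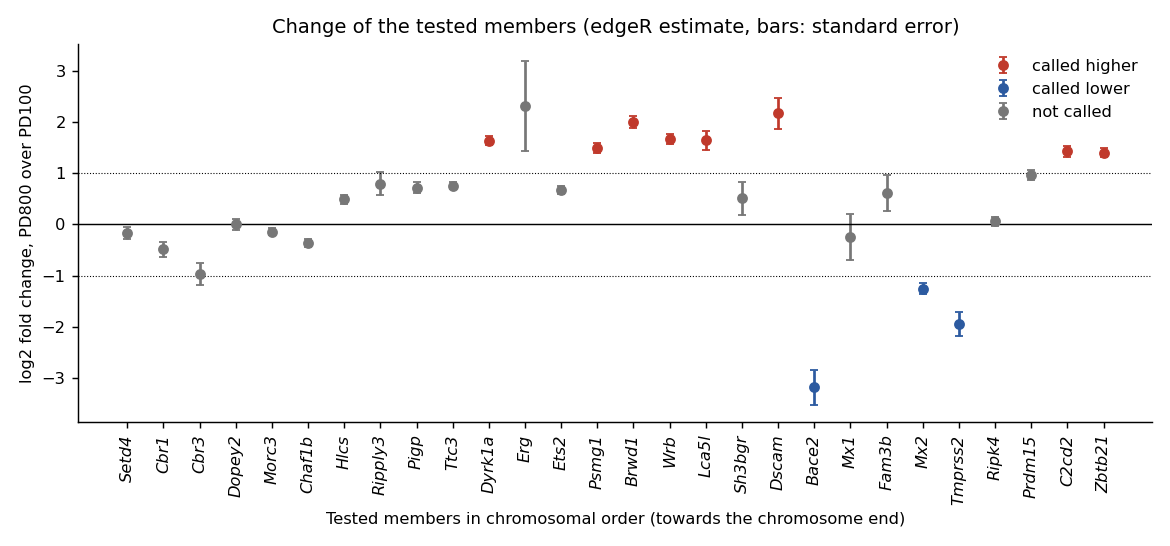
The log2 fold change of the 28 tested genes (vertical axis, PD800 over PD100, edgeR estimate with its standard error as bars) is drawn in chromosomal order, and dotted lines mark a fold change of 2. The 8 genes called higher (red) sit in the middle and at the end of the stretch, the 3 called lower (blue) lie near each other, and the first 6 genes are near or below 0.

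The genes called higher are given in 3 places, a split drawn after the values had been seen. Between the first and the second place only *Sh3bgr* had enough counts to be tested, so a gap there was not measured. The first was the run from *Dyrk1a* to *Lca5l*, 9 genes over 1.62 Mb, of which 7 were tested and 5 called. *Dyrk1a* encodes a kinase that phosphorylates itself on tyrosine and its substrates on serine and threonine. It was at 59.8 and 53.5 CPM in the PD100 libraries and at 178 and 175 CPM in the PD800 libraries. Its mean went from 56.7 ± 4.41 to 176 ± 1.72 CPM (SD, n = 2), with a log2 fold change of 1.64 (SE 0.09). The PD800 values lay 3.11-fold above those at PD100 by the fit, with the PD800 libraries nearly equal.

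*Psmg1* encodes a chaperone that, paired with PSMG2, assembles the proteasome's core. It measured 38.5 and 45.6 CPM at PD100 and 117 and 121 CPM at PD800, with means of 42.1 ± 4.97 and 119 ± 2.80 CPM (SD, n = 2). The log2 fold change was 1.5 (SE 0.10), and both PD800 libraries were above both PD100 libraries. *Brwd1*, whose product holds bromodomains that bind acetylated histones and WD repeats, is the neighbour of *Psmg1* and was the most abundant of the 33 genes by count. It was at 154 and 185 CPM at PD100 and at 674 and 692 CPM at PD800, means of 169 ± 21.6 and 683 ± 12.7 CPM (SD, n = 2), with a log2 fold change of 2.01 (SE 0.11). The 95 exon bases that *Brwd1* shares with *Gm15342* on the opposite strand could pass reads between these genes if strand was not used in counting gene totals, a setting not given in the sources used here, but *Gm15342* had at most 275 counts in any library against at least 6163 for *Brwd1*.

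*Wrb*, also known as *Get1*, encodes a membrane receptor that inserts tail-anchored proteins into the endoplasmic reticulum. Its level was 46.2 and 38.8 CPM at PD100 and 136 and 135 CPM at PD800, means of 42.5 ± 5.25 and 136 ± 0.634 CPM (SD, n = 2), with a log2 fold change of 1.67 (SE 0.10). *Lca5l*, a paralogue of the cilium gene *Lca5*, was scarce, at 1.07 and 1.2 CPM at PD100 and 3.45 and 3.64 CPM at PD800, means of 1.13 ± 0.0942 and 3.55 ± 0.135 CPM (SD, n = 2), with a log2 fold change of 1.65 (SE 0.19). The 4 abundant genes of this run (*Dyrk1a*, *Psmg1*, *Brwd1* and *Wrb*) and *Lca5l*, which was far scarcer, thus showed log2 fold changes between 1.5 and 2.01.

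Inside the same run, *Ets2*, a transcription factor gene, was below the threshold of fold change, at 18.4 and 17.9 CPM at PD100 against 29.4 and 28.5 CPM at PD800 (log2 fold change 0.67, SE 0.08). *Erg*, its relative of the endothelial and blood lineages, had expected counts of 0 and 6 at PD100 and 16 and 13 at PD800. The fitted log2 fold change of 2.32 had an SE of 0.88, and *Erg* was not called. It passed the count filter through its PD800 libraries only, and single libraries decided its value, which was 1.23 without PD100 replicate 1 and 6.95 without PD100 replicate 2, where the remaining PD100 library had no count. The potassium channel genes *Kcnj6* (2, 3, 0 and 2 counts in PD100 replicates 1 and 2 and PD800 replicates 1 and 2) and *Kcnj15* (7, 5, 2 and 1 counts) were too low to be tested.

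**Figure D2:**
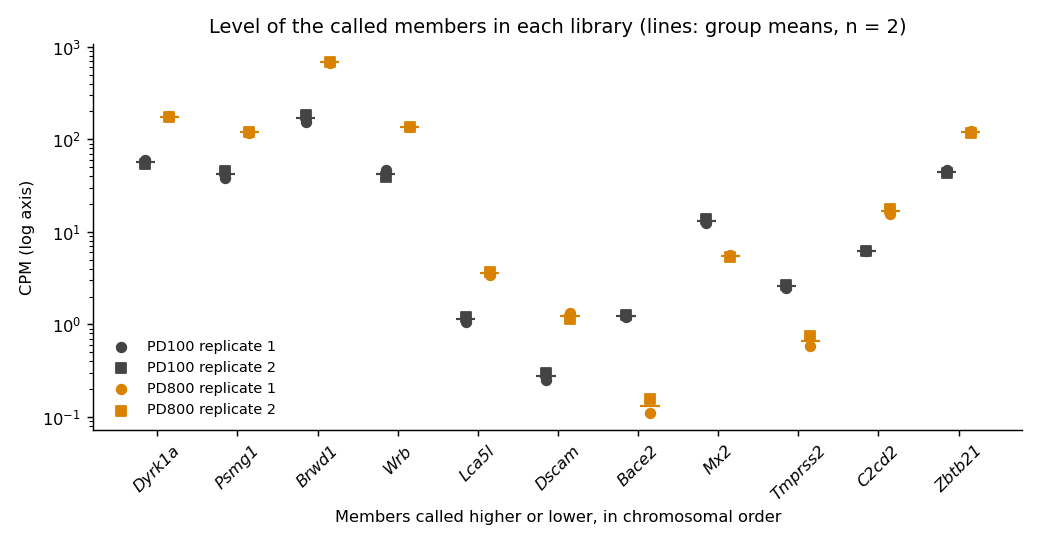
The level of each called gene is given in CPM on a log axis for the 4 libraries, PD100 in grey and PD800 in orange, with circles and squares for replicates 1 and 2 and lines for the group means. The libraries of a group lie close together beside the gap between the groups for each of the 11 genes, from *Dscam* and *Bace2* near 1 CPM or below to *Brwd1* at 683 CPM at PD800.

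The second place was *Dscam*, a cell adhesion gene of the immunoglobulin superfamily with roles in neuronal self-recognition. It had 10 and 10 counts at PD100 and 48 and 37 counts at PD800, or 0.248 and 0.300 CPM against 1.34 and 1.15 CPM, with means of 0.274 ± 0.0367 and 1.24 ± 0.130 CPM (SD, n = 2). The log2 fold change was 2.18 (SE 0.30). The level was low, *Dscam* was over the count filter in both PD800 libraries but in only 1 at PD100, and without PD800 replicate 1 it was no longer called (2.07), nor was it on the TPM scales (0.69 with log2(TPM + 0.1) and 0.11 with log2(TPM + 1)). *Dscam* spans 580 kb, and the long gene's level at PD800 corresponded to only 0.110 TPM.

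The last place was the end of the stretch, where *Prdm15*, *C2cd2* and *Zbtb21* lie within 0.17 Mb. *C2cd2* encodes a protein with a C2 domain. It measured 6.27 and 6.14 CPM at PD100 and 15.7 and 17.8 CPM at PD800, means of 6.20 ± 0.0888 and 16.8 ± 1.51 CPM (SD, n = 2), with a log2 fold change of 1.43 (SE 0.11). It was not called on either TPM scale, at 1.09 with log2(TPM + 0.1) and 0.62 with log2(TPM + 1). *Zbtb21*, a BTB and zinc finger gene, measured 46.8 and 42.8 CPM at PD100 and 123 and 116 CPM at PD800, means of 44.8 ± 2.87 and 119 ± 4.93 CPM (SD, n = 2), with a log2 fold change of 1.41 (SE 0.08). *C2cd2* and *Zbtb21* share 86 exon bases on the same strand, so reads there could belong to either gene. *Prdm15*, which encodes a zinc finger transcription factor that acts in mESCs and the early embryo, was just under the threshold, with 18.9 and 21.1 CPM at PD100 and 39.0 and 39.4 CPM at PD800 (0.97, SE 0.09). It passed the threshold without PD100 replicate 2 (1.03).

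The 3 genes called lower, *Bace2*, *Mx2* and *Tmprss2*, lie between *Dscam* and *Ripk4*, with *Mx1* and *Fam3b* among them. *Bace2*, a protease gene related to the beta-secretase gene *Bace1*, had 49 and 42 counts at PD100 and 4 and 5 counts at PD800. Its level went from 1.24 ± 0.0315 to 0.133 ± 0.0313 CPM (SD, n = 2), with a log2 fold change of -3.19 (SE 0.34), that is 9.11-fold lower. *Bace2* passed the count filter through its PD100 libraries only, and at PD800 it was near the floor.

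*Tmprss2*, which encodes a serine protease of the cell surface of epithelia, was at 2.5 and 2.64 CPM at PD100 and at 0.584 and 0.747 CPM at PD800, means of 2.57 ± 0.0951 and 0.666 ± 0.115 CPM (SD, n = 2), with a log2 fold change of -1.95 (SE 0.23). *Mx2*, an interferon-induced GTPase gene that the annotation lists as a polymorphic pseudogene, was at 12.5 and 13.7 CPM at PD100 and at 5.56 and 5.35 CPM at PD800, means of 13.1 ± 0.872 and 5.46 ± 0.149 CPM (SD, n = 2), with a log2 fold change of -1.26 (SE 0.11). *Mx1*, its close paralogue, had between 7.01 and 12.18 expected counts in the 4 libraries, its groups overlapped (-0.24, SE 0.45), and how the counting divided reads between these similar genes is uncertain. The fall of *Mx2* went with that of other genes of the interferon response, given below.

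The remaining genes between *Sh3bgr* and *Ripk4* gave no call. *Ripk4*, a kinase gene of epithelial differentiation, was at 34.6 and 39.2 CPM at PD100 and 38.4 and 38.2 CPM at PD800 (0.06, SE 0.09), and the groups overlapped. *Sh3bgr* (14 to 25 counts, 0.51, SE 0.33, and 0.24 without PD800 replicate 1) and the secreted-protein gene *Fam3b* (9 to 17 counts, 0.62, SE 0.35) were low, and *Fam3b* passed the filter with both PD800 libraries but 1 at PD100. *B3galt5*, a galactosyltransferase gene (8, 7, 3 and 3 counts in the PD100 and PD800 libraries), *Igsf5* (2.14, 6, 7 and 4 counts) and *Pcp4*, a calmodulin-binding protein gene of neurons (3.86, 0, 2 and 5 counts), were not tested.

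At the centromeric side of the stretch, the 6 genes from *Setd4* to *Chaf1b* had no call and a median log2 fold change of -0.27. The carbonyl reductase genes *Cbr1* and *Cbr3* lay at -0.49 (SE 0.14) and -0.97 (SE 0.21). *Cbr3* was at 10.4 and 15.7 CPM at PD100 and at 6.34 and 6.88 CPM at PD800, just inside the threshold of fold change, and it was called without PD100 replicate 1 (-1.25). *Setd4*, a SET domain gene, was at -0.17 (SE 0.12) with overlapping groups, and *Dopey2* (*Dop1b* in the annotation) was close to 0, at 10.6 and 10.9 CPM against 11.3 and 10.2 CPM. *Morc3*, an ATPase gene of nuclear bodies, was at 132 and 130 CPM against 119 and 118 CPM (-0.14, SE 0.07). *Chaf1b*, the middle subunit of the histone chaperone CAF-1, was at 51.6 and 55.0 CPM against 42.9 and 40 CPM (-0.36, SE 0.08).

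The next 4 genes, *Hlcs* to *Ttc3*, had no call either, and their median was 0.74. All 4 had PD800 above PD100 without overlap, as did 37.4% of all tested genes, and this run was drawn after the values had been seen. *Hlcs*, the gene of the enzyme that attaches biotin to carboxylases, was at 11.6 and 10.9 CPM against 15.7 and 15.8 CPM (0.49, SE 0.09). *Ripply3*, a transcriptional corepressor gene, had 29 to 56 counts (0.80, SE 0.22). *Pigp*, a subunit of the enzyme that starts the synthesis of GPI anchors, was at 6.56 and 6.05 CPM against 10.5 and 10.2 CPM (0.72, SE 0.11). *Ttc3*, a ubiquitin ligase gene, was at 111 and 114 CPM against 191 and 191 CPM (0.76, SE 0.07). *Pigp* and *Ttc3* share 326 exon bases on opposite strands, and if strand was not used in counting their reads there cannot be told apart.

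Set in chromosomal order, the summed level moved in steps. The boundaries of these runs were drawn after the values had been seen. *Setd4* to *Chaf1b* summed to 245 and 262 CPM at PD100 and to 212 and 212 CPM at PD800, and *Hlcs* to *Ttc3* to 130 and 132 CPM and then 219 and 218 CPM. *Dyrk1a* to *Lca5l* went from 318 and 342 CPM to 1140 and 1160 CPM. *Sh3bgr* to *Ripk4*, which includes the genes called lower, were at 52.4 and 58.5 CPM against 47.7 and 47.2 CPM, and *Prdm15* to *Zbtb21* at 72.0 and 70.0 CPM against 177 and 173 CPM. The run with *Brwd1* thus added most to the sum, and the summed level of the runs starting with *Setd4* and *Sh3bgr* was lower at PD800.

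**Figure D3:**
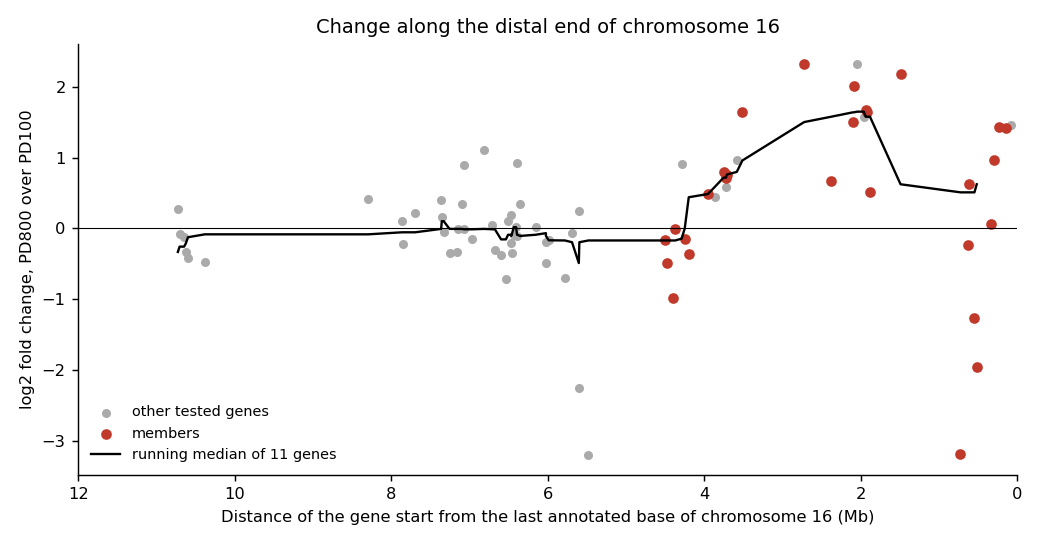
Each point is a tested gene in the last 12 Mb of chromosome 16, with its log2 fold change (PD800 over PD100) against the distance in Mb of its start from the last annotated base of the chromosome. The named genes are in red, other genes in grey, and the line is the running median of 11 neighbouring genes, which lies between -0.49 and 0.10 up to *Dopey2* and is highest, at 1.65, at 2.05 Mb from the end.

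The change was described along the chromosome with all 507 tested genes of chromosome 16. In bins of 1 Mb counted from the last annotated base, the median log2 fold change was 0.34 in the last bin (10 genes), 1.65 and 2.01 in the next bins (5 genes each), 0.74 between 3 and 4 Mb (8 genes) and -0.17 between 4 and 5 Mb (7 genes). Just outside, it was -0.43 between 5 and 6 Mb (6 genes), -0.10 between 6 and 7 Mb (18 genes), 0.05 between 7 and 8 Mb (12 genes) and 0.41 for the 1 gene between 8 and 9 Mb, and the gene at the inner edge of the stretch, *Setd4*, was at -0.17. Above the median of 2.01 in its bin lay only *Erg*, which had few counts and was not called, and *Gm15342*, which shares exon bases with *Brwd1*. Farther than 10 Mb from the end the running median of 11 genes stayed between -0.66 and 0.46. It was highest inside the stretch, at 1.65, centred on *Gm15342*. The stretch was chosen after this difference had been seen, so nothing can be read from the peak lying inside it. The last 5 Mb of other chromosomes also differed, and by the median of its 35 tested genes there (0.72) chromosome 16 was at place 4 of 20, after chromosomes 11 (1.19), 6 (0.90) and 12 (0.84). Of the 7 tested genes in the last 5 Mb that are not among the 33, 3 were called higher. They were *Hmgn1*, a nucleosome-binding protein gene next to *Wrb* (342 ± 35.1 CPM at PD100, SD, n = 2, log2 fold change 1.58, SE 0.10), *Gm15342*, a noncoding gene antisense to *Brwd1* (2.33, SE 0.17), and *B230307C23Rik*, beyond *Zbtb21* (1.47, SE 0.09). Genes near the 33 but not among them were thus also called higher. The part of the DNA amplification around *Hmgn1* in these values was not tested. *Gm15342* had far fewer counts than *Brwd1*. If strand was not used in counting, reads of *Brwd1* in the exon bases they share could add to those of *Gm15342*.

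Levels of different genes were compared per length, in TPM, values that RSEM divided by transcript length and set to equal totals. At PD100 *Psmg1* (34.63 and 36.06 TPM) and *Brwd1* (28.43 and 36.33 TPM) were the highest of the 33 genes, and their libraries overlapped. *Morc3* (30.23 and 25.94 TPM) overlapped with *Brwd1*, and *Chaf1b* (24.32 and 25.18 TPM) was below *Morc3*. At PD800 the order was *Brwd1* (112.27 and 110.56 TPM), *Psmg1* (86.40 and 84.15 TPM), *Wrb* (40.07 and 38.20 TPM) and *Ttc3* (34.41 and 31.15 TPM), and these 4 did not overlap with each other. *Wrb* moved from place 7 to place 3, *Dyrk1a* from place 9 to place 5, and *Morc3* from place 3 to place 6.

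RSEM also gives a mean transcript length per gene, weighted by the estimated share of each isoform, which the choice of genes did not use. It varied between libraries in 21 of the 28 tested genes. PD800 was longer without overlap in 4 of the tested genes, *Setd4* (1424 and 1411 bases at PD100, 1681 and 1592 bases at PD800), *Dopey2*, *Pigp* and *Erg*, of which *Erg* had no count in PD100 replicate 1 and so no measured length there, and shorter in *Morc3* (3562 and 3665 against 3386 and 3477 bases) and *Ttc3*. Among all tested genes with a varying length, PD800 was longer in 20.8% and shorter in 15.1%, so that these counts were near the background. With 2 libraries against 2, an exact two-sided permutation test cannot give a p below 0.333.

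The bases before the transcription start of the genes were read from RefSeq (GRCm38.p6), which gave a promoter for 25 of the 33 genes, 1 per gene. The window of 250 bases before RefSeq's start lies wholly inside the gene as GENCODE draws it for *Cbr1*, *Pigp*, *Ets2* and *C2cd2*, all but 2 bases of it do for *Setd4*, and other windows overlap the gene in part. 4 genes called higher (*Psmg1*, *Brwd1*, *Wrb* and *Zbtb21*) and *Tmprss2*, the only gene called lower with an entry, are printed 5′ to 3′ on the strand of the gene, to show promoters next to genes that moved in opposite directions. They lie at chr16:95990961-95991210 (*Psmg1*, minus strand), chr16:96082527-96082678 (*Brwd1*, minus strand, 152 bases before the annotated gene), chr16:96145150-96145399 (*Wrb*, plus strand), chr16:97962623-97962872 (*Zbtb21*, minus strand) and chr16:97611196-97611445 (*Tmprss2*, minus strand). Capitals mark GGGCGG, the core of the GC box, read on either strand. The sequence is that of the C57BL/6J reference, while the E14 cells come from a 129 strain.
Psmg1: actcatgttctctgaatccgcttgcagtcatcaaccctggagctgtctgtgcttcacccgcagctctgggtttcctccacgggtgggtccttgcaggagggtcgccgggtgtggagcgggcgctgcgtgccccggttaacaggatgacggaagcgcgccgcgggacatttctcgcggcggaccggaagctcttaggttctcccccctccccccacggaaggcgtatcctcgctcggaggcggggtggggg
Brwd1: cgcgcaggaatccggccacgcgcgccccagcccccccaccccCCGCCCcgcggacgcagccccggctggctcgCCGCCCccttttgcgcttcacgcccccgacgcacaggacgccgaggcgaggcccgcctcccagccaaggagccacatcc
Wrb: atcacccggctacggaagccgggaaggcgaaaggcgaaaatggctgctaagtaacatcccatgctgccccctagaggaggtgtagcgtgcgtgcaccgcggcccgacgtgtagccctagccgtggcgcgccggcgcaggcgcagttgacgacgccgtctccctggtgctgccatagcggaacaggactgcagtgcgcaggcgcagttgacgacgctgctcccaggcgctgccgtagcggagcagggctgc
Zbtb21: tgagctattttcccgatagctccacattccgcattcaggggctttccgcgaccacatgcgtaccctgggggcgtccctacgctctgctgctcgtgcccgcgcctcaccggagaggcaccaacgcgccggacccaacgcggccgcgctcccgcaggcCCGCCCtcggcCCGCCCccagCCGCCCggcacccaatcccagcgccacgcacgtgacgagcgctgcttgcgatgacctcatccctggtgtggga
Tmprss2: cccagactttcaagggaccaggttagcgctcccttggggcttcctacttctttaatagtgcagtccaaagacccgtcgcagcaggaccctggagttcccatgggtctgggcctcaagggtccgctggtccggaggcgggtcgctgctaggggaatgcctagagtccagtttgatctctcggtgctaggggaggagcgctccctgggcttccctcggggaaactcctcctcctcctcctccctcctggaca

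Most of these promoters were dense in CpG, as were those of most tested genes. Within the 250 bases before RefSeq's start, *Dyrk1a* had 43 CpG (10 of them in the 54 bases before the GENCODE gene), *Brwd1* 42 (21 of them in its 152 bases), *Zbtb21* 30, *Wrb* 28, *Psmg1* 23, *Dscam* 21 and *Tmprss2* 10, and *Pcp4* and *Kcnj15*, too low to be tested, had 3 and 1. Of the 21 tested genes with a promoter, 20 had 10 or more CpG (95.2%), beside 69.4% of the 12059 promoters of tested genes that could be matched by symbol and 38.2% of all 27025 promoters. All 8 genes called higher, 11 of the 12 not called and *Tmprss2* reached it, and with 1 entry for a gene called lower no comparison by direction could be made. GGGCGG was found in 14 of the 21 tested genes' promoters (66.7%, against 57.1% of tested genes), CCAAT in 6 (28.6%, against 36.3%) and CCGGAAG, the ETS core, in 4 (19%, against 12.7%), on either strand. *Zbtb21* had 3 GGGCGG, and *Psmg1*, *Wrb* and *Tmprss2* had none in these windows. TATAAA and CACGTG were each in 1 of the 21, beside 6.71% and 8.21% of tested genes. The palindromic motif of NRF1 was in 1 (1.51% of tested genes), and those of Kaiso and of interferon-stimulated response elements were in none (0.804% and 2.56%).

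Genes whose products work together with those of *Chaf1b*, *Psmg1*, *Wrb* and *Pigp* were listed, and those lie on other chromosomes. None of the 2 listed CAF-1 partners of *Chaf1b* was called (*Chaf1a* -0.04, SE 0.11, and *Rbbp4* 0.16, SE 0.08). The same holds for the 4 proteasome assembly partners of *Psmg1*, where *Psmg2*, with which PSMG1 forms a dimer, was at 19.8 ± 1.07 and 16.2 ± 1.02 CPM (SD, n = 2, log2 fold change -0.29, SE 0.09), while *Psmg1* was called higher. *Psmg3*, *Psmg4* and *Pomp* were at 0.46 (SE 0.17), 0.46 (SE 0.19) and 0.33 (SE 0.08). Of the partners of *Wrb* in tail-anchored protein insertion, *Asna1*, the ATPase that hands over the substrate, was at 188 ± 3.19 and 123 ± 3.39 CPM (SD, n = 2, -0.62, SE 0.07), and *Caml*, the other receptor subunit, was close to 0. Of the 5 partners of *Pigp* that could be matched, *Pigh* was called higher (18.2 ± 3.30 and 50.7 ± 1.13 CPM, SD, n = 2, log2 fold change 1.48, SE 0.13). *Piga*, *Pigc*, *Pigq* and *Dpm2* were between -0.14 and 0.54 and were not called.

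**Figure D4:**
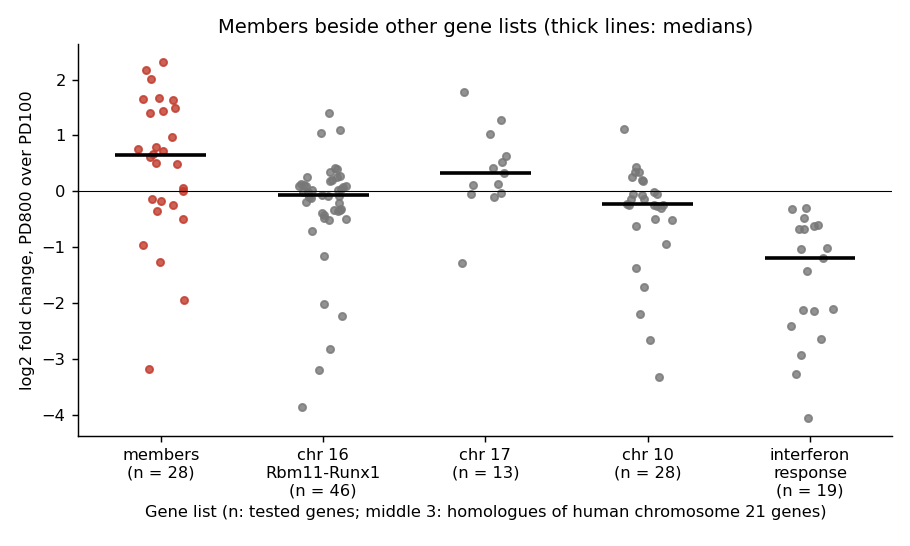
Each point is a tested gene with its log2 fold change (PD800 over PD100) for the 28 tested genes of the stretch, for the homologues of human chromosome 21 genes on chromosome 16 before the stretch and on chromosomes 17 and 10, and for interferon response genes. Thick lines mark the medians, 0.65, -0.06, 0.33, -0.24 and -1.20 from left to right.

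The homologues of human chromosome 21 genes elsewhere in the mouse genome were set beside those of the stretch. In the part of chromosome 16 that precedes *Setd4*, from *Rbm11* to *Runx1*, 46 genes were tested, of which 2 were called higher and 6 lower. Their median was -0.06, with *Adamts1*, a secreted protease gene, lowest (-3.87, SE 0.18) and the junction gene *Jam2* highest (1.40, SE 0.11). On chromosome 17, 3 of 13 tested genes were called higher and 1 lower, at a median of 0.33, between *Ubash3a* (-1.28, SE 0.15) and *Hsf2bp* (1.78, SE 0.10). On chromosome 10, 1 of 28 was called higher and 5 lower, at a median of -0.24, between the integrin gene *Itgb2* (-3.32, SE 0.47) and *Aire* (1.12, SE 0.14). The median of the chromosome 17 genes had the other sign, at -0.04, without an expression filter, and on the TPM scale.

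Genes of the interferon response, to which *Mx1* and *Mx2* belong, were lower as a list. Of 19 further genes 12 were called lower and none higher, at a median of -1.20, from *Isg15*, a ubiquitin-like protein gene (26.9 ± 5.48 against 1.61 ± 0.148 CPM, SD, n = 2, log2 fold change -4.06, SE 0.19), to *Irf9* (-0.29, SE 0.10). Their sum was 694 and 687 CPM at PD100 and 327 and 326 CPM at PD800. *Mx2*, at -1.26, lay near this median, and *Bace2* and *Tmprss2*, the other genes called lower, are not interferon genes. The markers of primitive endoderm and fibroblasts were lower in the same libraries, and their part in the values of *Bace2*, *Tmprss2* and *Mx2* was not tested.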

How the data were processed

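RNA of DKO741 mESCs at PD100 and PD800 was sequenced with 2 libraries each, called biological duplicates in the study's methods. Paired-end reads had been mapped to mm10 (STAR 2.5.3a), and the authors deposited expected counts, TPM values and weighted transcript lengths from RSEM 1.3.0 for each gene. The submitters' processing notes also name DESeq2 1.18.1. The study reads transcripts of its telomeric region by direction, but the annotation release and RSEM's strand setting for the gene counts are not given in the sources used here, and the labels name total RNA where the study's text speaks of mRNA sequencing. FPKM values were not used. Labels give the times as population doublings and also as passages.

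Expected counts were rounded and tested across all genes with edgeR 4.0.16 in R 4.3.3 (filterByExpr with a minimum count of 10, TMM, quasi-likelihood test, Benjamini-Hochberg). The procedure was tested on simulated data. Precision is limited by depth for genes with few counts and by the spread between replicates for abundant genes, and the floor of 3 counts covers counting error only. Coordinates came from GENCODE M21 (GRCm38), in which 53274 of 53379 identifiers were found. Motifs were searched on both strands. Genes named are all members, genes at the ends of each list, complex partners and called neighbours. The members and all lists were chosen with earlier results of these data known. DESeq2 1.42.0, its size factors, other filters, limma 3.58.1 on log2(TPM + 1) and log2(TPM + 0.1), a replicate block and leaving out each library were alternatives. *Pigy* and *Sumo3* could not be matched to 1 row and were left out.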

Additional observations from a re-analysis of the deposited data

How the results depend on the processing

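With DESeq2, with its size factors or with the replicate block, the call of none of the 28 tested members changed. The replicate numbers are shared by the groups only as numbers: the deviations of same-numbered libraries correlated at 0.265, and with the block 8 members were higher and 3 lower, at a median of 0.65. Leaving out a library, with the lone library taken to vary like the other group, gave 7 to 10 members higher and 3 to 4 lower, and medians of 0.58 to 0.72 for the members, 0.22 to 0.42 for chromosome 17 and -1.30 to -1.12 for interferon genes. Over all genes it gave 880 to 1514 higher and 1274 to 1893 lower. Without an expression filter the median was 0.53 for the members and -0.04 for chromosome 17, and *Erg* was called. Requiring 10 counts in every library removed *Erg*, *Bace2*, *Fam3b* and *Mx1*. On the TPM scale the median of all genes shifted to -0.12 with log2(TPM + 1) and -0.21 with log2(TPM + 0.1). With log2(TPM + 1), 5 members were higher and 1 lower, over all genes 297 higher and 920 lower (1202 and 1686 on the count scale), and the medians were 0.11 for the members, -0.28 for *Rbm11* to *Runx1* and -0.06 for chromosome 17. *Lca5l*, *Dscam*, *Bace2*, *Mx2*, *Tmprss2* and *C2cd2* lost their call there, and *Cbr3* gained one. With log2(TPM + 0.1), 533 genes were higher and 1779 lower, and the medians were 0.34, -0.34 and -0.07 for the same lists, -0.41 for chromosome 10 and -1.42 for interferon genes. *Dscam* and *C2cd2* lost their call and *Cbr3* gained one. The cause was not tested. *Ripk4*, *Dopey2* and *Mx1* changed sign among these settings. The highest running median was 1.43 over 21 genes, and the highest median of a bin with at least 3 genes was 1.76 in bins of 0.5 Mb against 2.01 in bins of 1 Mb.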
